A study of Mus musculus with 6 samples.

Results

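The maternal-effect genes described here, best known from the egg, were read out in whole mouse testis. The 10 are Nlrp5, Tle6, Ooep, Khdc3, Padi6, Zbed3, Nlrp2, Nlrp4f, Nlrp14 and Nlrp9b, picked by symbol from the 54532 genes of the deposited count table. The choice was made with results of these libraries known, since Nlrp5 and Padi6 had stood among the genes with the smallest unadjusted p between knockout and wild type. Their differences between the genotypes are therefore a description of how they were found and are supported by no test of their own. RNA came from testis in 6 libraries, 3 labelled wild type (WT) and 3 labelled 1700052I22Rik-KO, a knockout of a testis long non-coding RNA gene. The age, strain and number of mice, and the part of the gene that was removed, were not stated in the sources used, and nothing says that the replicates came from separate animals. The spread between libraries may then be partly technical.

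A maternal-effect gene is one whose product is laid down in the egg, so that the mother's genotype decides how the embryo develops. NLRP5, TLE6, OOEP and KHDC3 assemble in the oocyte into the subcortical maternal complex, a protein assembly under the cell cortex that the embryo needs to pass the early cleavages. PADI6, ZBED3, NLRP2 and NLRP4F have been linked to that complex, and PADI6 is needed for the cytoplasmic lattices of the oocyte. NLRP14 and NLRP9B belong to the same protein family as NLRP5, with a pyrin domain, a nucleotide-binding domain and leucine-rich repeats, and NLRP14 is also known from male germ cells.

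Library totals ran from 17635045 to 18117593 counts, so 1 read was worth about 0.0559 CPM, the normalised read count used here. The targeted transcript had 185, 175 and 218 reads in the WT libraries and 0 reads in each KO library. All 15 spermatid markers, all 15 spermatocyte markers and all 12 spermatogonial markers checked were detected, led by Tnp2, Syce1 and Uchl1 on the scale of CPM per kilobase. A pair of libraries stood apart in the summed level of Leydig cell genes. The 10 Leydig cell genes checked summed to 291 CPM in WT 1 and 320 CPM in KO 2, and to between 528 and 962 CPM in the other 4 libraries. The genes of that list did not move alike. In WT 1 Cyp17a1, a steroid-synthesis enzyme, had 381 reads against 6429 and 4407 in WT 2 and 3, whereas Insl3, a Leydig cell hormone, had 1421 against 1504 and 1501. In whole tissue, fewer cells of a type and less RNA per cell cannot be told apart.

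The 10 genes spanned a very wide range of levels, and a single gene held most of the signal. Levels between genes are compared as CPM per kilobase of exon, using the deposited gene length, which equalled the union of the annotated exons for all 10. Nlrp14 held 82.5% of the summed level. At least 1 read was seen for 9 genes, and 7 passed a filter on low counts that asks for about 10 reads in 3 libraries. The 3 that did not pass were Khdc3, Ooep and Nlrp2. Passing the filter can depend on the group in which a gene is higher, so the 7 are not a sample of all 10.

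**Figure D1:**
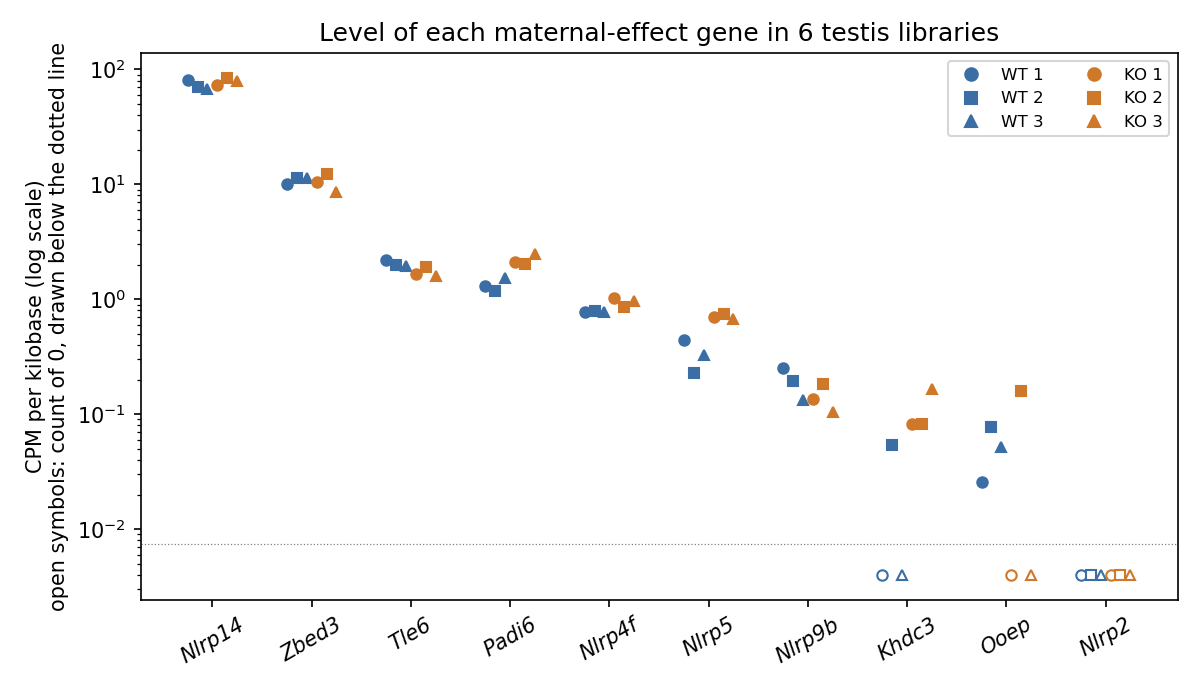
Level of each of the 10 genes in each library, as CPM per kilobase on a log axis, with blue symbols for WT, orange for KO and open symbols for a count of 0. Nlrp14 sits between 67.4 and 84.4, Nlrp5 between 0.230 and 0.737, and Nlrp2 is at 0 in all 6 libraries.

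Nlrp14 had the highest level, 75.6 CPM per kilobase over the 6 libraries, above 95.1% of the 19320 genes that passed the filter. Zbed3, which encodes a zinc finger protein that binds Axin in Wnt signalling, followed at 10.7, and Tle6, a corepressor-like protein of the Groucho family, at 1.88. Padi6, an enzyme-family member of the peptidylarginine deiminases, stood at 1.77, and its range of 1.19 to 2.46 enclosed that of Tle6, so those 2 neighbours in the order were not separated. Nlrp4f followed at 0.862, Nlrp5 at 0.520, Nlrp9b at 0.168, Khdc3 at 0.0640 and Ooep at 0.0525. The ranges over libraries did not overlap between Nlrp14 and Zbed3, Zbed3 and Tle6, Padi6 and Nlrp4f, or Nlrp4f and Nlrp5. From Nlrp5 downwards every neighbour overlapped the next, the range of Nlrp5 reaching down to 0.230 CPM per kilobase in WT 2.

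The 4 genes of the core complex were thus present in very unequal amounts in these testes. On the scale of CPM per kilobase Tle6 was at 1.88, Nlrp5 at 0.520, Khdc3 at 0.0640 and Ooep at 0.0525. Tle6 and Nlrp5 did not overlap over the 6 libraries. Khdc3 and Ooep could be told from 0 only by a handful of reads.

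Nlrp5, also called Mater, encodes the scaffold of the complex. Its counts were 39, 20 and 29 in WT 1, 2 and 3, and 61, 63 and 58 in KO 1, 2 and 3. The 3 KO libraries lay close together and all above the highest WT library, WT 1, while among the WT libraries the gap from WT 2 up to WT 1 was as large as that from WT 1 up to KO 3. The WT mean was 1.62 ± 0.525 CPM and the KO mean 3.42 ± 0.160 CPM (SD, n = 3 each). The coefficient of variation was 32.3% in WT, where counting alone would give 18.5%, and 4.69% in KO, where counting alone would give 12.8%. The KO libraries thus varied less than counting error, and the WT libraries more, though an SD of 3 values is imprecise. The fitted log2 fold change of KO against WT was 1.07 (95% interval 0.51 to 1.63), a 2.10-fold higher level.

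Nlrp5 lies on the plus strand of chromosome 7 from 23385889 to 23441922 in mm10, and RefSeq gives it 2 start sites. The 250 bases before each are shown because Nlrp5 had the largest of the 7 fitted differences. A count per gene would add up transcripts from either start, and use of either in these libraries was not tested. The outer window, chr7:23385639-23385888, lies before the gene. The inner window, chr7:23403852-23404101, lies inside the gene and overlaps no annotated exon, so it is intron sequence by the annotation. Whether transcription begins after it was not tested, and it is not shown to be a promoter. Both windows are from RefSeq's annotation of GRCm38.p6, plus strand, 5′ to 3′, with motif matches in capitals.
Nlrp5 outer start: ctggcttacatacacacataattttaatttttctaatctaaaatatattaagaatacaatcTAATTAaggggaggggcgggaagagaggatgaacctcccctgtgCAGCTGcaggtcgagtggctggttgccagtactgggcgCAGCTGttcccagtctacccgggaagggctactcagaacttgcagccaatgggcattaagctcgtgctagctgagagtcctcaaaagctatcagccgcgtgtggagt
Nlrp5 inner start: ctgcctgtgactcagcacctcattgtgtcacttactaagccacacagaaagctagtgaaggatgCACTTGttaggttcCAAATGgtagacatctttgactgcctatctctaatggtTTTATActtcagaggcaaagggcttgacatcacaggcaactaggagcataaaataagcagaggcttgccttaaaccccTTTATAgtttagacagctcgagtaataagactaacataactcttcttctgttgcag
In these windows 5 motifs were searched on both strands, the E-box CANNTG, which FIGLA and SOHLH proteins of germ cells bind, TAATTG, bound by the oocyte factor NOBOX, the homeobox core TAATTA, the cAMP response element TGACGTCA, which CREM binds in spermatids, and TATAAA. The outer window held 2 matches to CANNTG and 1 to TAATTA, and the inner window 2 to CANNTG and 2 to TATAAA, with no match overlapping another. Of 32817 windows of the same length before RefSeq starts, 66.2% held CANNTG, 7.17% TAATTG, 4.85% TAATTA, 1.55% TGACGTCA and 12.4% TATAAA. These matches describe the letters and are not shown to be sites.

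Nlrp5 has a transcribed pseudogene copy, Nlrp5-ps, elsewhere on chromosome 7, named here after its values were seen. Of the 4992 distinct 50-base stretches in Nlrp5 transcripts, 315 (6.31%) also occur in transcripts of Nlrp5-ps, so some reads of the pair cannot be assigned with certainty. Nlrp5-ps had 98, 85 and 72 reads in WT 1, 2 and 3, and 108, 109 and 92 in KO 1, 2 and 3, and its groups overlapped (log2 fold change 0.30, 95% interval -0.096 to 0.70). On the scale of CPM per kilobase the copy was at 1.21, above Nlrp5 itself at 0.520. Summing the reads of both removes the question of how counted reads were split, but not that of reads counted for neither. The sums were 137, 105 and 101 for WT and 169, 172 and 150 for KO, and these groups did not overlap. They contain the Nlrp5 counts known when the gene was chosen, so they lend no further support. The summed level was 1.46 times as high in KO, with means of 6.34 ± 1.10 CPM for WT and 9.23 ± 0.714 CPM for KO (SD, n = 3 each).

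Tle6 had 122, 111 and 109 reads in WT 1, 2 and 3, and 91, 104 and 87 in KO 1, 2 and 3. Every KO library was below every WT library, though KO 2 and WT 3 nearly met. The WT mean was 6.32 ± 0.401 CPM and the KO mean 5.30 ± 0.533 CPM (SD, n = 3 each), and the log2 fold change was -0.25 (95% interval -0.61 to 0.11). This gene of the complex thus stood on the opposite side of 0 from Nlrp5.

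Ooep, a KH-domain protein that helps hold the complex together, had 1, 3 and 2 reads in WT 1, 2 and 3, and 0, 6 and 0 in KO 1, 2 and 3. All of its KO reads came from KO 2, and both groups summed to 6. The KO to WT ratio of summed counts was 1.02, with an exact interval for counting error of 0.272 to 3.81, so no difference was detectable at this depth. Khdc3, also called Filia, another KH-domain member, had 0, 2 and 0 WT reads and 3, 3 and 6 KO reads. Its summed counts were 2 and 12, a ratio of 6.10 with an exact counting interval of 1.36 to 56.1 that does not cover the spread between libraries. With no low-count filter Khdc3 was fitted too, and edgeR called 0 of the 9 members then fitted. Khdc3 lies on chromosome 9 from 73101836 to 73104438, and 790 of its 2050 exonic bases are shared with Gm20509, a gene model on the same strand that was listed with 0 reads. Which rule was used for reads in shared exons was not stated in the sources used, and its part in the low count was not tested.

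Among the 7 genes that were fitted, Padi6 was next to Nlrp5 in the size of its difference. Its counts were 59, 54 and 71 in WT 1, 2 and 3, and 95, 90 and 111 in KO 1, 2 and 3, with every KO library above every WT library. The WT mean was 3.40 ± 0.462 CPM and the KO mean 5.56 ± 0.591 CPM (SD, n = 3 each), and the log2 fold change was 0.71 (95% interval 0.29 to 1.12), a 1.64-fold higher level. The spread within groups was near that of counting alone, 13.6% against 12.8% in WT and 10.6% against 10.1% in KO. None of its 2482 distinct 50-base stretches occurs in transcripts of another annotated gene, and no annotated gene overlaps it.

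Padi6 lies on chromosome 4, minus strand, at 140727355 to 140742643. The 250 bases before its RefSeq start, chr4:140742644-140742893, minus strand, 5′ to 3′, are shown for comparison with the windows of Nlrp5, since these were the fitted members furthest above WT.
Padi6: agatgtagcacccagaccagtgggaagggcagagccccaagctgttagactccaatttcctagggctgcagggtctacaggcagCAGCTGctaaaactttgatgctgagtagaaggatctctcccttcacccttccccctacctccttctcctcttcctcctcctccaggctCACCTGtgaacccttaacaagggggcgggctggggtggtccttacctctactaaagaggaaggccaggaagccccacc
The window held 2 matches to CANNTG, the first of them CAGCTG, a form that also occurs in both matches of the outer Nlrp5 window. It held no match to the other 4 motifs. Windows were found for 9 of the 10 genes, 13 in all, and 8 of the 9 genes had a match to CANNTG, which is common in all windows. TAATTG was matched in windows of 2 genes, Ooep and Nlrp9b. Both were scarce in these libraries, but Khdc3 and Nlrp2, also scarce, had no match. The Ooep window overlaps an annotated exon of Ooep, and the Nlrp9b window lies inside that gene.

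**Figure D2:**
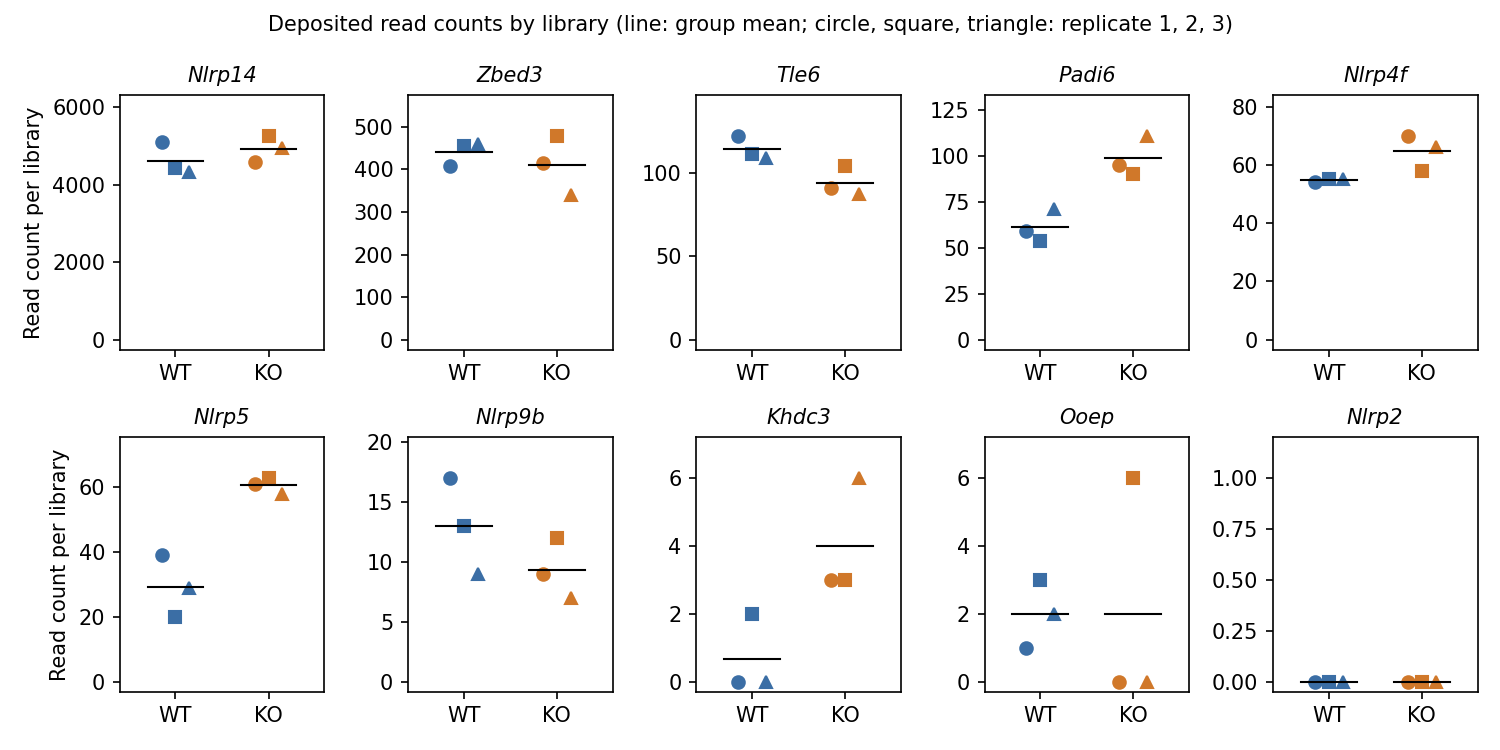
Deposited read counts of each gene by library, WT on the left and KO on the right of each panel, with a line at the group mean and symbols for replicates 1 to 3. Padi6 runs from 54 to 71 reads in WT and from 90 to 111 in KO, whereas Ooep and Khdc3 never exceed 6 reads.

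The remaining genes linked to the complex differed less. Zbed3 had 407, 454 and 460 reads in WT 1, 2 and 3, and 414, 479 and 339 in KO 1, 2 and 3. Its groups overlapped, KO 2 being the highest library and KO 3 the lowest, and the log2 fold change was -0.08 (95% interval -0.35 to 0.20). The sign turned without KO 3, to 0.05. Nlrp4f had 54, 55 and 55 WT reads and 70, 58 and 66 KO reads. Its KO libraries were all above WT by a small margin, the WT mean being 3.03 ± 0.0345 CPM and the KO mean 3.64 ± 0.328 CPM (SD, n = 3 each). The log2 fold change was 0.27 (95% interval -0.16 to 0.70). The WT CPM of Nlrp4f varied by 1.14%, far below the 13.5% of counting alone, but an SD of 3 values is imprecise. Its lowest KO library was 3 reads above its highest WT library. Nlrp2 had 0 reads in all 6 libraries. The exact 95% interval for that total reached 3.69 reads, or 0.00979 CPM per kilobase, a limit that covers counting error only. Of its 3509 exonic bases 105 are shared with other gene models, and the part of that in the 0 reads was not tested.

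Nlrp14 had 5114, 4427 and 4332 reads in WT 1, 2 and 3, and 4582, 5264 and 4956 in KO 1, 2 and 3. The groups overlapped, and the WT mean was 256 ± 24.1 CPM and the KO mean 278 ± 20.4 CPM (SD, n = 3 each). The log2 fold change was 0.12 with a narrow 95% interval of -0.061 to 0.30, the best measured of the 10. Its variation of 9.40% in WT was well above the 1.47% of counting, so depth was not what limited it. Nlrp9b, which is also known as a sensor of viral RNA in the gut epithelium, had 17, 13 and 9 WT reads and 9, 12 and 7 KO reads. Its groups overlapped and the interval of its log2 fold change, -1.39 to 0.50 around -0.45, included both directions.

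**Figure D3:**
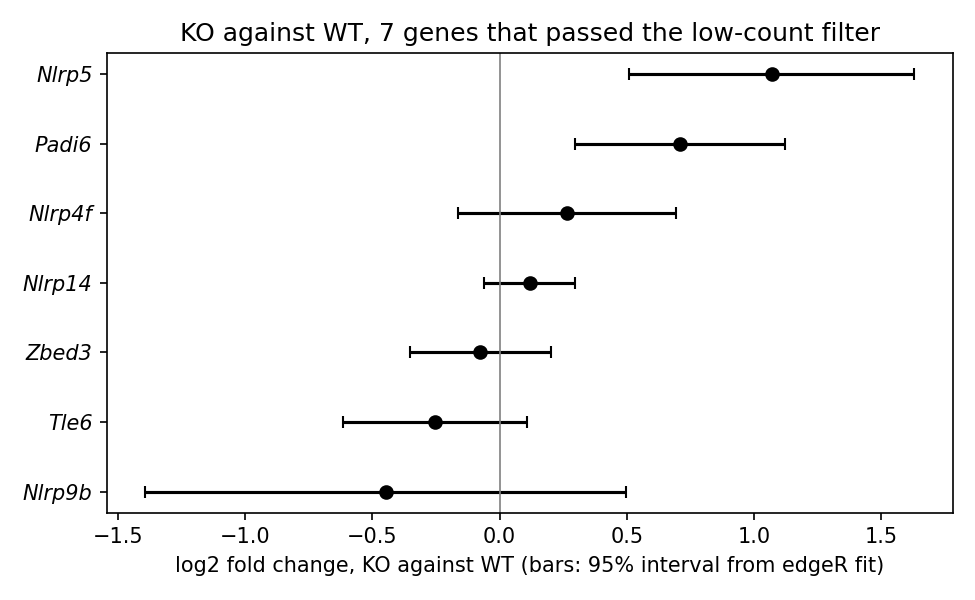
Fitted log2 fold change of KO against WT with its 95% interval for the 7 genes that passed the low-count filter. The intervals of Nlrp5 (0.51 to 1.63) and Padi6 (0.29 to 1.12), unadjusted for the number of genes, lie above 0, and those of the other 5 include 0.

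No member was called between the genotypes. Of the 19320 genes tested with edgeR's quasi-likelihood test and Benjamini-Hochberg adjustment 1 was called, 0.00518%, and it was the targeted gene. The 7 members that passed the filter had adjusted p from 0.965 to 0.977 in that fit. At an unadjusted p under 0.05 there were 2 members, Nlrp5 and Padi6, both higher in KO, against 4.63% of all tested genes in either direction, and 2.41% higher. DESeq2 called 0 members, also with 2 at an unadjusted p under 0.05. The groups did not overlap for 4 of the 7, Nlrp5, Padi6 and Nlrp4f higher and Tle6 lower, against 9.32% of all tested genes. Since the members were chosen with this contrast known, nothing follows from those shares. Of the 7, 4 had a log2 fold change above 0 and 3 below, with a median of 0.12 against -0.0025 over all tested genes.

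Relatives of the members were listed by family. Of 15 other genes listed with the NLRP family, Nlrx1 among them, 11 had a read and 4 passed the filter. Of these 0 were called, with a median log2 fold change of -0.15. On the scale of CPM per kilobase the highest were Nlrp4c at 1.14, Nlrx1 at 0.452 and Nlrp4e at 0.433, all far below Nlrp14. Nlrx1, a mitochondrial protein, is a relative of the family and not itself an NLRP gene. Nlrp4e lies near Nlrp5 on chromosome 7 and had 23, 15 and 29 WT reads and 19, 40 and 32 KO reads, with overlapping groups. Nlrp4b, Nlrp4d, Nlrp4g and Nlrp9a had 0 reads, as Nlrp2 did. Reads of this family can be shared, since 5.95% of the 50-base stretches of Nlrp4f and 7.79% of those of Nlrp9b also occur in other genes, most often in Nlrp4g and Nlrp9a, both at 0 reads. For Nlrp14 that share was 0%.

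Among the other peptidylarginine deiminases, enzymes that convert arginine to citrulline, 3 of 4 passed the filter and 0 were called. Padi3 had 111, 78 and 78 reads in WT 1, 2 and 3, and 62, 64 and 48 in KO 1, 2 and 3, all KO libraries being below all WT libraries, with a log2 fold change of -0.59 (95% interval -1.06 to -0.13, adjusted p = 0.965 in edgeR). Padi2 stood at -0.26 (95% interval -0.86 to 0.35). Padi4, the closest annotated neighbour of Padi6, had only 7 to 11 reads in WT and 8 to 15 in KO, with a log2 fold change of 0.30 (95% interval -0.65 to 1.25). Padi1, which did not pass the filter, had 6, 3 and 6 WT reads and 8, 7 and 12 KO reads, all KO libraries being above all WT libraries. Beside Padi6 the family thus divided, 2 genes lying below WT and 2 above, and the differences between these genes were not tested.

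All 5 other TLE corepressors passed the filter and 0 were called. All 5 had a log2 fold change below 0, as Tle6 had, with a median of -0.13 against -0.0025 over all tested genes. The 95% interval of each of them, and that of Tle6, included 0. They were led by Aes at 21.2 CPM per kilobase, Tle3 at 14.2 and Tle1 at 2.90. Of 4 other KH-domain genes 3 had 0 reads and Dppa5a had between 2 and 19 per library, and 0 passed the filter.

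Of 25 other genes with a known maternal effect 22 had a read and 21 passed the filter, with 0 called and a median log2 fold change of 0.02. Most of these act in many tissues, and the highest levels in CPM per kilobase were those of Trim28 (151), a corepressor of retroelements and imprinted loci, Smarca4 (29.5), a chromatin remodeller, and Uhrf1 (23.0), a partner of the maintenance methyltransferase Dnmt1. Basp1 and Zfp36l2 had an unadjusted p under 0.05, with log2 fold changes of -0.21 and -0.32 and an adjusted p of 0.965 each in edgeR. The genes of this list best known from the egg divided. Npm2, a histone chaperone of the oocyte, was at 4.84 CPM per kilobase and Btg4, an adaptor for clearing maternal RNA, at 6.97, while Zar1 and Zar1l had 0 reads and Dppa3 had at most 2 in a library.

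Markers of the oocyte were checked beside these values. Of 25 oocyte markers 17 had a read and 7 passed the filter, 0 being called. The list summed to between 21.2 and 22.4 CPM in WT and between 19.9 and 21.3 in KO, and its median log2 fold change was -0.15. Its highest members in CPM per kilobase were Gdf9 (5.35), a growth factor of the oocyte, E330034G19Rik (2.49) and Figla (0.879), a transcription factor of the oocyte. In CPM, Gdf9 averaged 10.9 and E330034G19Rik 4.55 over the 6 libraries, so those genes made up most of the sum. Kpna7, Mos and Lhx8 also passed the filter, with 269, 86 and 66 reads over the 6 libraries. Other genes of the list were at or near 0. Zp2, Bmp15, Oosp2, Oosp3 and Omt2b had 1 read each in all 6 libraries together, Oog1, Oog2, Oog3, Obox1, Obox2, Obox5, Omt2a and Oosp1 had 0, and Zp3, an egg coat protein, had 3 to 9 per library. Tcl1 had the only unadjusted p under 0.05 in this list, with 12, 15 and 12 WT reads against 4, 6 and 6 KO reads (log2 fold change -1.24, adjusted p = 0.965 in edgeR). Lhx8, a transcription factor of the oocyte, had 8, 8 and 10 WT reads and 12, 15 and 13 KO reads (log2 fold change 0.64, 95% interval -0.24 to 1.52), the KO libraries all above WT.

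**Figure D4:**
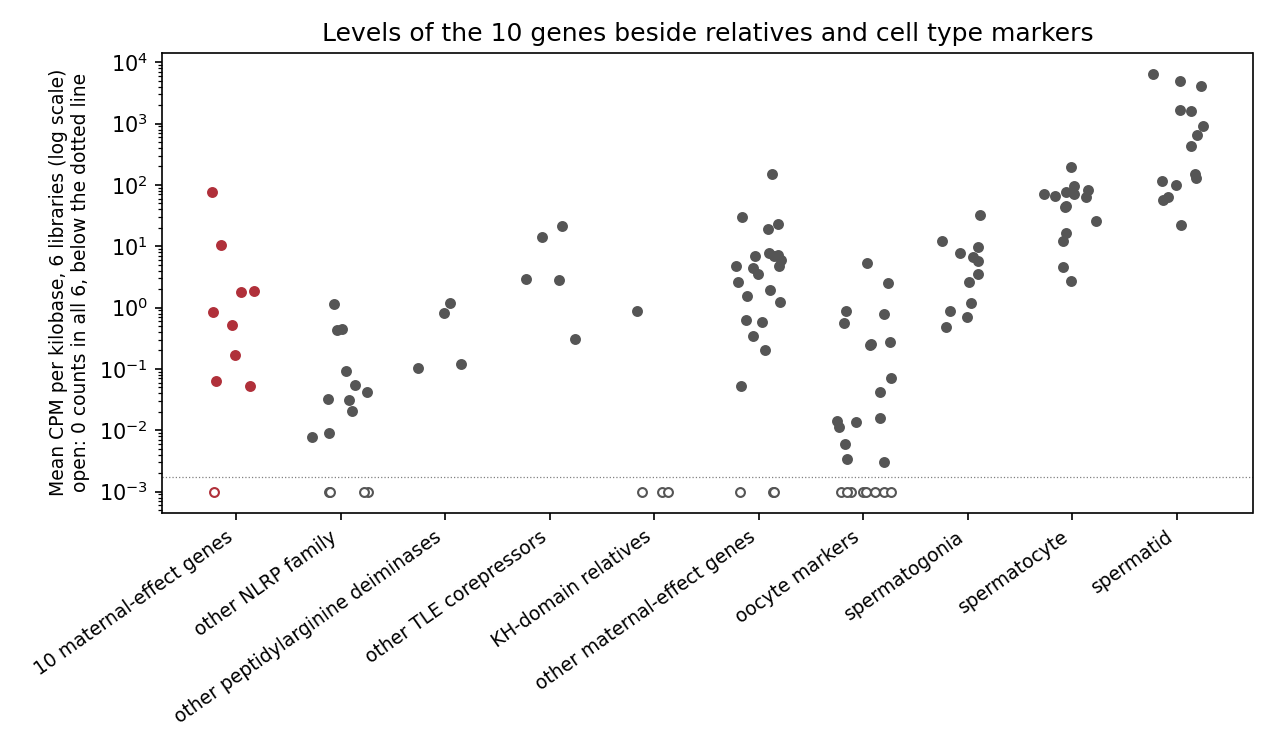
Mean level over 6 libraries of each gene, as CPM per kilobase on a log axis, for the 10 genes (red), their relatives, other maternal-effect genes, oocyte markers and germ cell markers, with open symbols for genes with 0 reads. Nlrp14 at 75.6 lies within the range of the spermatocyte markers (2.70 to 195) and also within that of the spermatid markers (22.4 to 6468). The other 9 genes lie at or below 10.7. Zbed3 at 10.7 is within the spermatocyte range and also within that of the spermatogonial markers (0.474 to 32.5). Tle6, Padi6, Nlrp4f and Nlrp5 lie within the spermatogonial range too, so levels do not assign a gene to a cell type.

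Levels of other cell types are given beside Nlrp5 and Padi6, and their part in those values was not tested. Spermatogonial markers summed to between 218 and 232 CPM in WT and between 209 and 219 in KO, and 0 of the 12 were called (median log2 fold change -0.13). The 15 spermatocyte markers had a median of 0.01, at 2031 to 2178 CPM in WT and 2123 to 2208 in KO, and the 15 spermatid markers a median of 0.03. The 12 Sertoli cell markers, with a median of -0.14, summed to between 1636 and 1846 CPM in WT and between 1569 and 1647 in KO, the groups barely overlapping. For the 10 macrophage markers the sums were 110 to 136 CPM in WT and 90.6 to 113 in KO, with a median of -0.35 and 10 of 10 below 0. At an unadjusted p under 0.05 in edgeR there were 4 of the 10, Lyz2, C1qa, C1qc and Csf1r, all lower in KO. The share over all tested genes was 4.63% in either direction, and 0 of the 10 were called. Leydig cell sums, from 291 to 962 CPM in WT and from 320 to 744 in KO, overlapped between the genotypes. The median log2 fold change of the 10 Leydig cell genes was -0.26 with 10 of 10 below 0, but only for Insl3 did the 95% interval exclude 0. The median over all tested genes was -0.0025. The genes of a list were read in the same 6 libraries, so 10 of 10 is not a count of replicates. Insl3 was lower in every KO library, with 988, 307 and 980 reads against 1421, 1504 and 1501 in WT (log2 fold change -0.94, adjusted p = 0.965 in edgeR). In WT 1, where the Leydig cell sum was low, Nlrp5 was at 2.16 CPM, the highest of the WT libraries, and in KO 2 it was at 3.57 CPM, the highest of the KO libraries. Padi6 was at 3.27 CPM in WT 1, between the other WT libraries, and at 5.11 CPM in KO 2, the lowest of the KO libraries. Without WT 1 and KO 2 the log2 fold change of Nlrp5 was 1.30 and that of Padi6 0.74, against 1.07 and 0.71 with all 6 libraries.

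**Figure D5:**
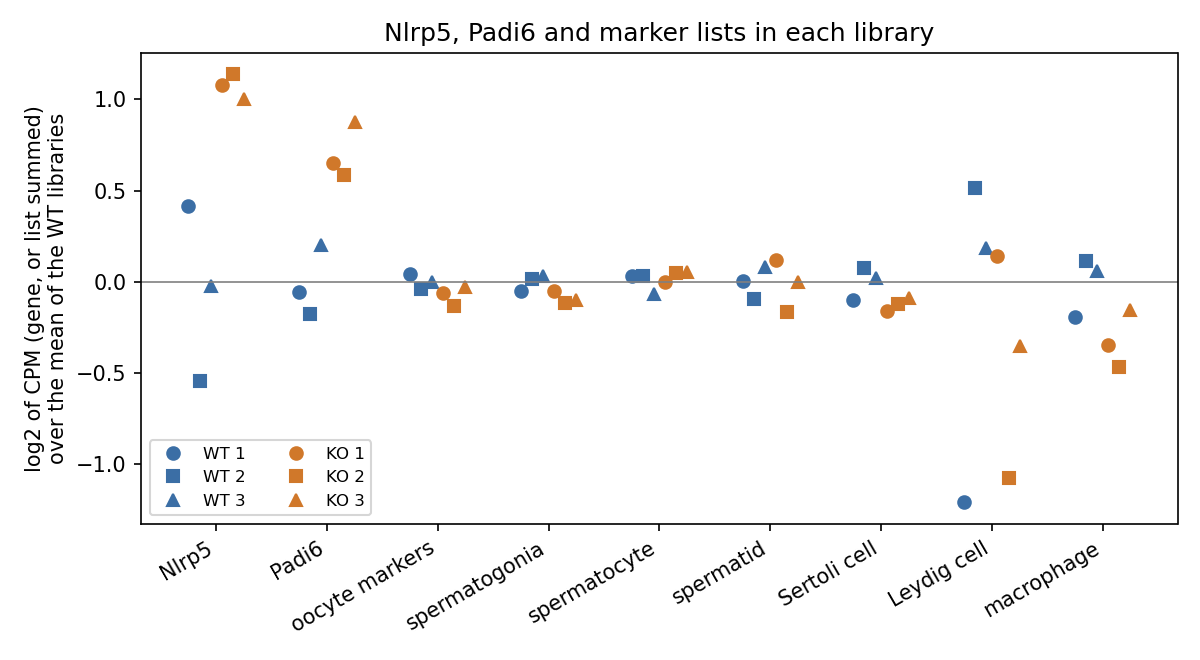
log2 ratio of each library to the mean of the WT libraries for the CPM of Nlrp5 and Padi6 and for the summed CPM of 7 marker lists. Nlrp5 reaches 1.14 in KO 2, the lowest value of the germ cell lists is -0.17, for spermatid markers in KO 2, and the Leydig cell list falls to -1.21 in WT 1 and -1.07 in KO 2.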

How the data were processed

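Whole-testis RNA of 3 WT and 3 KO libraries was read from the authors' deposited table of whole-number read counts per Ensembl gene, with gene length and coordinates, per the file header. HISAT2 2.0.0 and mm10 are named in the submitters' processing notes; the counting tool, annotation release and strand setting were not stated in the sources used. The coordinates of all 10 members matched GENCODE M21, and 0 columns of samples were unmatched.

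The members, gene lists and alternatives were chosen with earlier results of these data known. The rule for naming took all 10 members, the genotype's target, and from each list the 3 highest levels and any gene at an unadjusted p under 0.05; not all are printed, and some further genes were added once their values were known. The fit used edgeR 4.0.16 in R 4.3.3, with filterByExpr (minimum count 10, minimum total 15), TMM factors, glmQLFit and glmQLFTest on all 6 libraries, 19320 genes, and Benjamini-Hochberg adjustment at 0.05. It was tested on simulated data. CPM is TMM-normalised, and 95% intervals are from the fit's moderated standard errors. Alternatives were DESeq2 1.42.0 and its size factors, library size alone, no filter, limma-voom (limma 3.58.1), a replicate block, leaving out each library, and WT 1 and KO 2 left out together. Shared 50-base stretches came from GENCODE M21 transcripts, and windows of 250 bases from RefSeq. Molecular identifiers are not named in the labels, so counting intervals cover counting error only.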

Additional observations from a re-analysis of the deposited data

How the results depend on the processing

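Over 13 alternatives (12 for Nlrp9b, which failed the filter without WT 1 and KO 2) 89 of 90 fitted values of the 7 members kept their direction and their side of the threshold. The exception was Zbed3, at 0.048 without KO 3. All of these are refits of the same libraries, for genes chosen with this contrast known, so the 89 are not independent support. With 1 library left out at a time Zbed3 ranged from -0.20 to 0.048, Nlrp5 from 0.86 to 1.33 and Padi6 from 0.62 to 0.82. No member was called under any of these alternatives. Nlrp5 came nearest with no low-count filter, at an adjusted p of 0.0550 in edgeR, against 0.266 to 0.9999 elsewhere. The count of genes called over the whole table was 50 with no low-count filter, 2 in DESeq2 and 9 without WT 1 and KO 2, and it ranged from 1 to 3 with 1 library left out, being 3 without WT 2 and 2 without WT 3 or without KO 3; the cause was not tested. With the replicate number as a block 1 gene and 0 members were called, with log2 fold changes of 1.09 for Nlrp5 and 0.71 for Padi6; same-numbered libraries correlated at -0.17, -0.03 and 0.11 in their deviations, so the numbers were not taken as pairs. The order of levels kept all 10 ranks on plain CPM and between 8 and 10 with 1 library left out. Low counts limit what can be read for Khdc3, Ooep, Nlrp2 and Nlrp9b, and the part of depth or shared sequence in them was not tested.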
